A study of Homo sapiens with 6 samples.

Results

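Alpha- and beta-tubulin isotypes are the products of a multigene family, and 10 of their genes are described here. They were TUBA1A, TUBA1B, TUBA1C and TUBA4A for alpha-tubulin and TUBB, TUBB2A, TUBB2B, TUBB3, TUBB4B and TUBB6 for beta-tubulin, chosen by gene symbol from the 58735 genes of the expression table. RNA-seq was performed on HCT116SCs, stem-like cells derived from the human colorectal cancer cell line HCT116 and grown as tumor spheres in serum-free DMEM/F12 with EGF, bFGF and B27. The NC group held 3 libraries from cells transfected with a negative control siRNA (genotype label WT), and the siPSCA group held 3 libraries from cells transfected with siRNA against PSCA (genotype label PSCA knockdown). Both groups received Hieff Trans liposomes and were harvested 48 h after transfection. All libraries therefore come from 1 parental cell line, and the labels do not say which PSCA siRNA was used. Nothing says whether the libraries of a group came from separate cultures, so p-values measure the spread between these libraries, which may be technical. The comparison asks which transcripts differ when PSCA is targeted.

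Alpha- and beta-tubulin fold with the help of prefoldin, the chaperonin CCT and the tubulin cofactors, pair as heterodimers, and polymerize into microtubules, the fibres of the mitotic spindle and of intracellular transport. The isotypes are closely alike in their globular body and differ mainly in a short acidic tail at the C-terminus, which carries modifications such as glutamylation and, in most alpha isotypes, a cycle of removal and re-addition of the last tyrosine. Cells also lower tubulin mRNA when free heterodimers accumulate: the factor TTC5 recognizes the first residues of a nascent tubulin chain and directs the decay of the mRNA being translated. TUBB, TUBB4B, TUBA1B and TUBA1C are widely expressed in dividing cells, whereas TUBB3 and TUBB2B are best known from neurons.

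The 5′ ends of the coding sequences are shown because they encode the residues that autoregulation reads. Sequences are 5′ to 3′ on the coding strand, and were read from GENCODE release 29 transcripts (GRCh38). In each, the start codon is in lower case and the next 9 bases are in capitals:
TUBA1A, TUBA1B and TUBA1C: atgCGTGAGTGC
TUBA4A: atgCGTGAATGC
TUBB and TUBB4B: atgAGGGAAATC
TUBB3 and TUBB6: atgAGGGAGATC
TUBB2A: atgCGCGAGATC
TUBB2B: atgCGTGAGATC
Thus 6 sequence forms covered the 10 genes, and none was shared between alpha and beta. Within alpha, and within beta, the forms differ only in codons for the same residues, so each class encodes the same first residues. The last 60 coding bases of 7 of the genes, stop codon included, are shown because they encode the tails that set isotypes apart, with the codons GAA and GAG, both for glutamate, in capitals:
TUBA4A: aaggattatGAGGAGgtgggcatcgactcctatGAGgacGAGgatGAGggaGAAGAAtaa
TUBB: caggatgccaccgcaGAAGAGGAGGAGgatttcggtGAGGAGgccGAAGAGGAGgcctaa
TUBB4B: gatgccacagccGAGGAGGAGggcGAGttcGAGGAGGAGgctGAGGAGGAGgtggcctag
TUBB2A: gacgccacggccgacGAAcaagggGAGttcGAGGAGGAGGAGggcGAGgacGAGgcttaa
TUBB2B: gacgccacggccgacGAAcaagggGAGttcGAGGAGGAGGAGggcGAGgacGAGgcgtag
TUBB3: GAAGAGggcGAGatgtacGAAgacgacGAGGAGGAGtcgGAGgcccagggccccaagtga
TUBB6: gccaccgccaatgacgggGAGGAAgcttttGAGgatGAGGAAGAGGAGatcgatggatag

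Glutamate codons made up 7 (TUBA4A and TUBB6) to 10 (TUBB4B) of these last 20 codons. TUBB2A and TUBB2B differed there only in the last codons. Over the whole coding sequence, TUBA1A and TUBA1B were 97.2% identical and TUBB2A and TUBB2B 98.1%. The 6 pairs of alpha genes ranged from 84.4% to 97.2%, the 15 pairs of beta genes from 81.0% to 98.1%, and the 24 pairs of an alpha with a beta gene from 54.9% to 57.6%. These likenesses bear on the measurement. For each gene 1 coding transcript was used, picked first by its principal tag in GENCODE and by its length only to break ties. Of all its 50-base stretches, TUBB2A shared 65.5%, TUBA1B 62.7%, TUBB2B 52.2%, TUBA1A 41.1%, TUBA1C 25.1% and TUBB 18.2% with another annotated gene. Short reads there could have been split between copies. For TUBB none of these stretches was shared with another of the isotypes, and most were shared with the pseudogene TUBBP1 (16.1%). TUBB4B shared 9.89%, TUBA4A 5.25%, all of it with TUBA4B, and TUBB6 0.993%. TUBB3 shared 89.4%, all of it with the readthrough gene AC092143.1, which was listed at no more than 0.0593 FPKM. Of 100-base stretches fewer were shared: TUBB2A 56.35%, TUBB2B 46.2%, TUBA1B 37.2%, TUBA1A 18.3%, TUBA1C 11.5% and TUBB 5.1%, while TUBB3 kept 89.0%. The paper states that sequencing was paired-end, so a fragment can reach beyond 50 bases. How reads that match several genes were assigned, and whether counting used strand, is not given in the sources used here. Without strand, exons on opposite strands cannot be told apart, and those of TUBA1C covered 490 bases (14.3%) of TUBA1A while those of AFG3L2 covered 20.3% of TUBB6. Exons of STK16 and TUBA4B covered 18.1% of TUBA4A, and STK16 was listed at 3.84 to 5.79 FPKM.

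Each library held 16099716 to 17302219 reads on genes, as recovered from the table. PSCA, the targeted gene, was near the detection limit, with 4, 12 and 15 reads in NC and 9, 9 and 7 reads in siPSCA. The groups overlapped for PSCA (log2 fold change −0.07, 95% interval −0.35 to 0.21), so it does not check the labels of the libraries. NC 3 stood apart from the other NC libraries: the chi-square statistic per gene was 20.6 and 16.6 against NC 1 and NC 2, and 2.35 between those 2. Results are therefore also given without NC 3. Of 9 colorectal epithelial markers, 7 reached a mean of 1 FPKM (summed level 807 to 868 in NC and 861 to 890 in siPSCA), with CDX1 listed at 0 in all libraries. They did not move one way: KRT19 and KRT8, which make up most of that sum, rose by 0.25 and 0.22 on the log2 scale (adjusted p = 0.00589 and 0.00848) but were −0.27 and −0.02 after each library was freed of its trend of expression on GC content and length. CDX2 rose by 0.70 (adjusted p = 0.00387), whereas CDH1 fell by 0.60 and CD44 by 0.44 (adjusted p = 0.00134 and 0.00193), and these 3 kept their calls with the trend removed. Of 8 neuronal markers, 2 reached a mean of 1 FPKM, SYT1 and SNAP25. The neuronal list summed to 25.5 to 31.6 in NC and 17.7 to 19.8 in siPSCA. Nearly all of this was SYT1, which fell by 0.56 (limma adjusted p = 0.0048), whereas SNAP25 had −0.08 (adjusted p = 0.624). Fibroblast markers summed to 3.49 to 5.74 in NC and 6.17 to 6.74 in siPSCA, with 1 of 6, COL1A1, reaching that mean. None of 5 leukocyte or 3 endothelial markers reached a mean of 1 FPKM. The part of these shifts in the tubulin values was not tested.

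Of the 10 isotypes, 9 passed the minimum mean of 1 FPKM, and 7 of these 9 were higher in siPSCA at an adjusted p under 0.05: TUBA1B, TUBA1C, TUBA4A, TUBB, TUBB2A, TUBB4B and TUBB6. None was lower. The same 7 had every siPSCA library above every NC library. The background was high, because 50.7% of the 13796 genes tested passed the threshold, 26.6% higher and 24.2% lower, and 33.7% had every siPSCA library above every NC library. The median log2 fold change of the 9 genes was 0.42, against 0.01 over all genes tested, on the scale of log2(FPKM + 1), which understates changes of weakly expressed genes. Removing the GC and length trend left 3 of the 9 higher (TUBA1B, TUBA1C and TUBB) and made TUBB3 lower, with a median of 0.11, where 21.2% of all genes were higher and 18.4% lower. Without NC 3, 8 of the 9 were higher, TUBA1A being added, and the median was 0.42, where 29.1% of all genes were higher and 24.7% lower. In bulk RNA, a change in the number of cells of 1 kind and a change in RNA per cell cannot be told apart.

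**Figure D1:**
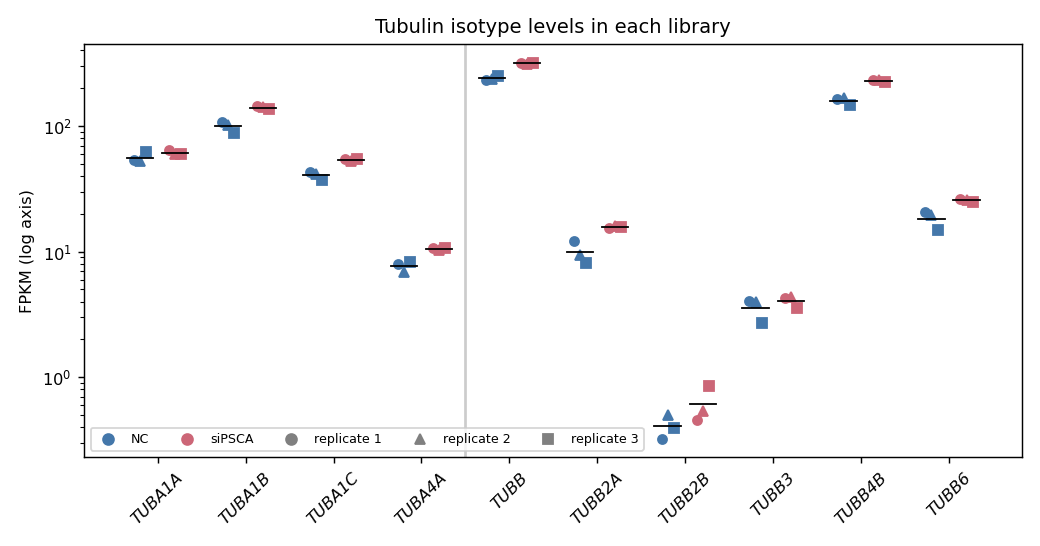
FPKM of each tubulin isotype (log axis) in the 3 NC and 3 siPSCA libraries, one point a library with the marker showing the replicate number and the bar the group mean. TUBB and TUBB4B stand highest and TUBB2B lowest, and the groups overlap for TUBA1A, TUBB3 and TUBB2B.

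TUBB, the main beta-tubulin of most dividing cells (ENSG00000196230, chromosome 6, 30720201 to 30725426, plus strand), was the most abundant isotype. It was measured at 234.5, 238.0 and 248.1 FPKM in NC 1, NC 2 and NC 3 and at 318.0, 312.7 and 318.9 FPKM in siPSCA 1, siPSCA 2 and siPSCA 3. All siPSCA libraries lay above all NC libraries, and the gap was far wider than the spread within either group. TUBB rose from 240.2 ± 7.05 to 316.5 ± 3.33 FPKM (SD, n = 3), a ratio of 1.32 and a log2 fold change of 0.40 ± 0.04 (SE, limma adjusted p = 0.00147). It was the isotype least moved by leaving out a library, with log2 fold changes between 0.38 and 0.42. Removal of the GC and length trend left 0.21 (adjusted p = 0.0196).

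TUBB4B (ENSG00000188229, chromosome 9, 137241213 to 137243707, plus strand) encodes the other widely expressed beta isotype, also prominent in cilia. Its FPKM was 163.1, 166.2 and 147.8 in NC and 231.5, 234.0 and 222.3 in siPSCA. The groups were again separate, with NC 3 the lowest library. TUBB4B rose from 159.0 ± 9.86 to 229.2 ± 6.15 FPKM (SD, n = 3, ratio 1.44), a log2 fold change of 0.53 ± 0.06 (SE, limma adjusted p = 0.00156) that was 0.47 without NC 3. With the GC and length trend removed it was 0.11 and did not pass the threshold (adjusted p = 0.141).

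The remaining beta isotypes of moderate level were TUBB6 and TUBB2A. TUBB6 (ENSG00000176014, chromosome 18, 12307669 to 12344320, plus strand), a divergent isotype known from fibroblasts and muscle, was measured at 20.6, 19.7 and 14.8 FPKM in NC and at 26.1, 25.6 and 25.1 FPKM in siPSCA. NC 3 was well below the other NC libraries, and the siPSCA libraries were close together above all of them. TUBB6 rose from 18.4 ± 3.13 to 25.6 ± 0.518 FPKM (SD, n = 3, ratio 1.39), a log2 fold change of 0.47 ± 0.12 (SE, limma adjusted p = 0.0199). Its call was lost when any siPSCA library was left out (adjusted p = 0.0515 to 0.0671), and its log2 fold change was −0.03 with the GC and length trend removed (adjusted p = 0.472). Without NC 3 the value was 0.33 (adjusted p = 0.00126).

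TUBB2A (ENSG00000137267, chromosome 6, 3153669 to 3157526, minus strand), abundant in brain and one of a near-identical gene pair, had the largest fold change of the 10. Its values were 12.1, 9.48 and 8.07 FPKM in NC (352, 285 and 240 reads) and 15.4, 16.0 and 15.6 FPKM in siPSCA (449, 491 and 491 reads). The groups were separate, although the NC libraries spread widely. TUBB2A rose from 9.89 ± 2.06 to 15.7 ± 0.318 FPKM (SD, n = 3, ratio 1.58), a log2 fold change of 0.63 ± 0.13 (SE, limma adjusted p = 0.00994), and the value was 0.51 without NC 3. After removal of the GC and length trend it was 0.25 and fell just short of the threshold (adjusted p = 0.0513).

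TUBB2B and TUBB3, the beta isotypes best known from neurons, were the 2 lowest of the set. TUBB3 (ENSG00000258947, chromosome 16, 89921392 to 89938761, plus strand) was measured at 4.07, 3.97 and 2.73 FPKM in NC and at 4.31, 4.36 and 3.53 FPKM in siPSCA. The groups overlapped, with the lowest library of each being its number 3. Mean levels were 3.59 ± 0.748 and 4.07 ± 0.464 FPKM (SD, n = 3), and the log2 fold change was 0.15 with a 95% interval of −0.19 to 0.49 (limma adjusted p = 0.394). Without NC 3 it was 0.01 (adjusted p = 0.937). Once the GC and length trend was removed, it was −0.34 and passed the threshold in the other direction (adjusted p = 0.00783).

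TUBB2B (ENSG00000137285, chromosome 6, 3224261 to 3231730, minus strand) lay under the minimum and was fitted along with every gene that had a read (34391 genes, of which 16.3% passed the threshold). It had 12, 19 and 15 reads in NC and 17, 21 and 34 reads in siPSCA. These correspond to 0.326, 0.497 and 0.397 FPKM in NC and 0.458, 0.539 and 0.851 FPKM in siPSCA. The groups overlapped, and a difference was not detectable at this depth (log2 fold change 0.19, 95% interval −0.11 to 0.50, limma adjusted p = 0.381). In NC its mean FPKM was far below that of its near-identical neighbour TUBB2A.

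Among the alpha isotypes, TUBA1B was the most abundant (ENSG00000123416, chromosome 12, 49127782 to 49131397, minus strand), the ubiquitous alpha-tubulin of proliferating cells. Its FPKM was 107.9, 102.0 and 88.5 in NC and 144.6, 140.8 and 135.5 in siPSCA. All siPSCA libraries were above all NC libraries. TUBA1B rose from 99.4 ± 9.92 to 140.3 ± 4.55 FPKM (SD, n = 3, ratio 1.41), a log2 fold change of 0.50 ± 0.08 (SE, limma adjusted p = 0.00424). The value was 0.42 without NC 3 and 0.24 with the GC and length trend removed (adjusted p = 0.0109).

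TUBA1C (ENSG00000167553, chromosome 12, 49188736 to 49274603, plus strand), a broadly expressed isotype in the same gene cluster, was measured at 43.0, 41.9 and 37.2 FPKM in NC and at 54.3, 52.4 and 54.3 FPKM in siPSCA. The siPSCA libraries were nearly equal and all above NC. TUBA1C rose from 40.7 ± 3.09 to 53.6 ± 1.12 FPKM (SD, n = 3, ratio 1.32), a log2 fold change of 0.39 ± 0.07 (SE, limma adjusted p = 0.00457). It was 0.27 with the GC and length trend removed (adjusted p = 0.0113).

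TUBA1A (ENSG00000167552, chromosome 12, 49184796 to 49189324, minus strand), the principal alpha isotype of developing neurons, did not pass the threshold. Its FPKM was 53.6, 52.7 and 61.8 in NC and 64.2, 59.95 and 59.4 in siPSCA. NC 3 was the highest NC library and exceeded 2 of the siPSCA libraries, so the groups overlapped. Mean levels were 56.0 ± 5.02 and 61.2 ± 2.62 FPKM (SD, n = 3), and the log2 fold change was 0.13 with a 95% interval of −0.05 to 0.31 (limma adjusted p = 0.197). Here 1 library decided the call, since without NC 3 the value was 0.20 (adjusted p = 0.0117). With the GC and length trend removed it was −0.03 (adjusted p = 0.737).

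TUBA4A (ENSG00000127824, chromosome 2, 219249711 to 219278170, minus strand) encodes an alpha isotype whose coding sequence does not end with a tyrosine codon, as its printed tail shows (GAAGAAtaa). It was measured at 7.91, 6.87 and 8.25 FPKM in NC and at 10.7, 10.2 and 10.7 FPKM in siPSCA. The groups did not overlap. TUBA4A rose from 7.68 ± 0.720 to 10.5 ± 0.260 FPKM (SD, n = 3, ratio 1.37), a log2 fold change of 0.42 ± 0.07 (SE, limma adjusted p = 0.00556). With the GC and length trend removed it was 0.05 and did not pass (adjusted p = 0.756).

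The exact permutation test on each gene, 2-sided, cannot fall below p = 0.1 with 3 libraries against 3. It gave that smallest value for each of the 7 called isotypes, 0.2 for TUBB2B, 0.3 for TUBA1A and 0.5 for TUBB3.

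**Figure D2:**
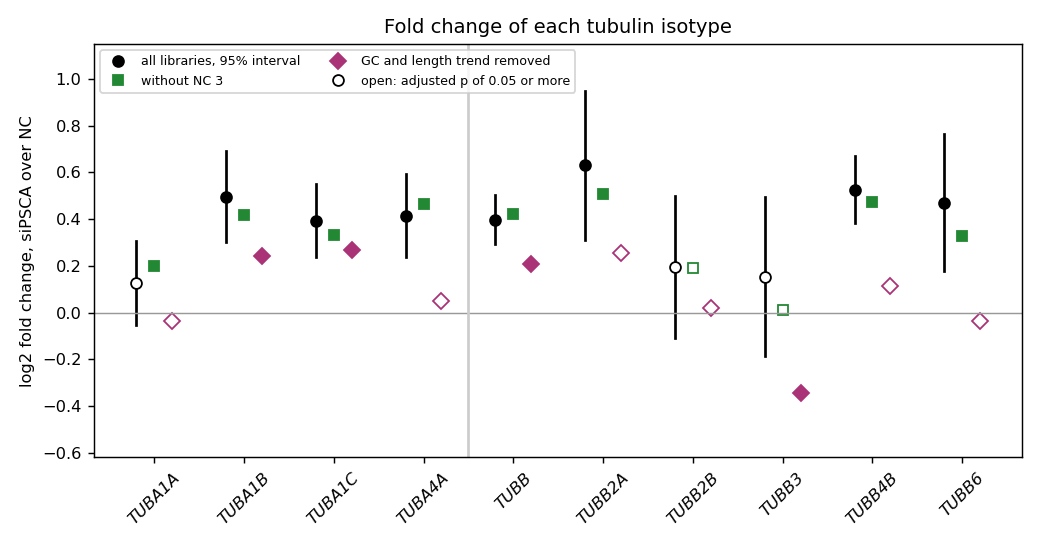
Log2 fold change of each isotype, siPSCA over NC, with its 95% interval (black), without NC 3 (green) and with the GC and length trend removed (purple); open symbols did not reach an adjusted p under 0.05. All black points lie above 0, and those of TUBA1A, TUBB3 and TUBB6 move to −0.03, −0.34 and −0.03 once the trend is removed.

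The order of mean FPKM was the same in both groups: TUBB, TUBB4B, TUBA1B, TUBA1A, TUBA1C, TUBB6, TUBB2A, TUBA4A, TUBB3 and TUBB2B. In NC, TUBB2A and TUBA4A were the only neighbours in that order whose libraries overlapped, and in siPSCA no neighbours did. TUBA1A and TUBA1C were the closest of the abundant isotypes, and the part of the exonic bases they share on opposite strands was not tested. FPKM divides by all exonic bases of a gene, 3574 for TUBA1B and 2111 for TUBB4B, while their picked transcripts have 1627 and 1637. The order between genes thus depends on this divisor. TUBA1B had more reads than TUBB4B in every library, such as 6477 and 5786 in NC 1.

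Summed over the 4 alpha isotypes, the level was 212, 203 and 196 FPKM in NC and 274, 263 and 260 FPKM in siPSCA, a ratio of group means of 1.30. Summed over the 6 beta isotypes, it was 435, 438 and 422 FPKM in NC and 596, 593 and 586 FPKM in siPSCA, a ratio of 1.37. Both sums were higher in every siPSCA library. The ratio of the beta to the alpha sum was 2.12 ± 0.0616 in NC and 2.23 ± 0.0451 in siPSCA (SD, n = 3), and this was not tested. All exonic bases exceeded the picked transcript more for TUBA1B (3574 and 1627) and TUBA1A (3421 and 1915), which hold most of the alpha sum. The gap was smaller for TUBB (3359 and 2670) and TUBB4B (2111 and 1637), which hold most of the beta sum. The ratio therefore does not count beta against alpha transcripts, and shares within a sum have the same limit. Together the 10 genes took 0.203% to 0.214% of the reads on genes in NC and 0.281% to 0.288% in siPSCA. The sums are descriptions with no test, since the genes were chosen as a set.

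Within the alpha sum, TUBA1B made up 50.8%, 50.1% and 45.2% in NC and 52.8%, 53.5% and 52.2% in siPSCA. TUBA1A made up 25.2%, 25.9% and 31.6% in NC and 23.4%, 22.8% and 22.8% in siPSCA. The share of TUBA1B was thus above, and that of TUBA1A below, every NC library in all siPSCA libraries, with NC 3 the farthest from siPSCA for both. Shares of the same sum are bound to each other, so these shifts are not separate results. Without NC 3, the difference between group means was 2.35 percentage points for TUBA1B and −2.56 for TUBA1A, compared with 4.10 and −4.56 over all libraries. TUBA1C held a mean of 19.9% in NC and 20.2% in siPSCA, and TUBA4A 3.77% and 3.97%.

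The beta sum was made up mostly of TUBB, with 55.7% ± 2.70 in NC and 53.5% ± 0.846 in siPSCA, and of TUBB4B, with 36.8% ± 1.58 and 38.7% ± 0.770 (SD, n = 3). TUBB6 held 4.25% and 4.32%, TUBB2A 2.29% and 2.65%, TUBB3 0.830% and 0.687% and TUBB2B 0.0942% and 0.104%. The libraries of the 2 groups overlapped in all 6 shares.

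**Figure D3:**
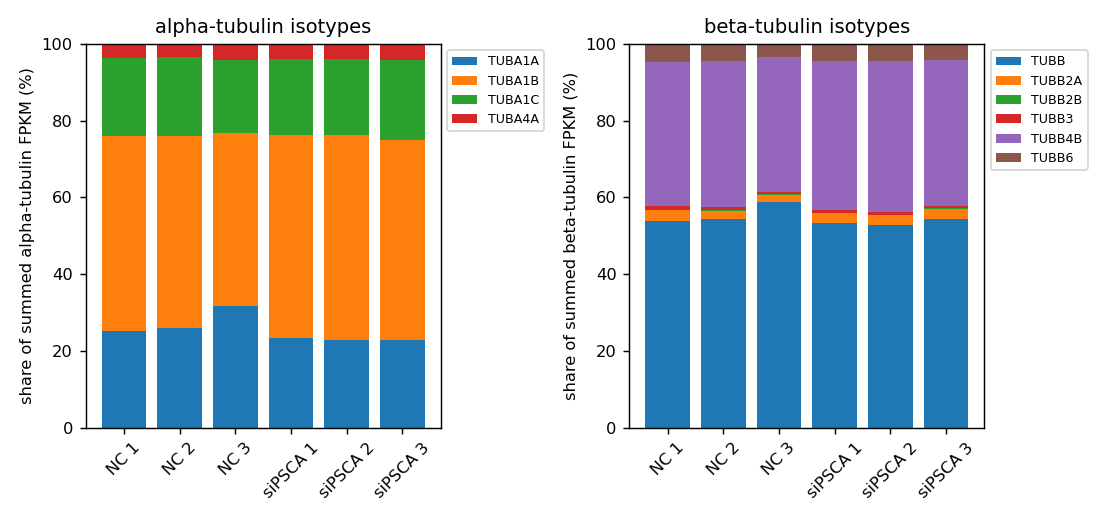
Share of each isotype in the summed alpha-tubulin (left) and beta-tubulin (right) FPKM, in percent, one bar a library. TUBA1B makes up 45.2% to 50.8% of the alpha sum in NC and 52.2% to 53.5% in siPSCA, and the beta shares overlap between the groups.

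GC content moved with the comparison. Over 13792 genes with a GC value, taken from the longest transcript, the log2 fold change had a Spearman correlation of 0.664 with GC content across genes, which are not independent replicates. The 9 isotypes tested had a median GC content of 57.8%, against 48.1% over all genes tested. Set against genes of like GC content, in bins of 2 percentage points, 4 isotypes lay above the upper quartile of the log2 fold change (TUBA1B, TUBA1C, TUBB and TUBB2A), 4 lay within the quartiles (TUBA1A, TUBA4A, TUBB4B and TUBB6) and TUBB3 lay below the lower quartile. TUBB, with 52.6% GC and a log2 fold change of 0.40, exceeded the upper quartile of its bin, 0.34, and TUBA1C, with 51.6% GC and 0.39, exceeded 0.27. TUBB6 and TUBB3 had the same GC content of 61.2%, where the bin median was 0.46 and the lower quartile 0.20. TUBB6, at 0.47, lay at that median and TUBB3, at 0.15, under the quartile. The part of GC content in the tubulin values was not tested beyond the removal of its trend.

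Of 13 other tubulin genes, 5 reached the minimum and were tested. The others were low, TUBA3D being the highest of them at 0.598 FPKM in NC and 0.510 FPKM in siPSCA. TUBB4A, a beta isotype of brain and the only other alpha or beta gene over the minimum, rose from 10.7 ± 1.31 to 18.6 ± 0.472 FPKM (SD, n = 3, log2 fold change 0.75, limma adjusted p = 0.00174), and with the GC and length trend removed it was 0.19 (adjusted p = 0.0320). Its level was 2.48% of the beta sum in NC and 3.14% in siPSCA. TUBG1, the gamma-tubulin of the centrosome, rose by 0.29 on the log2 scale (adjusted p = 0.00881) but was −0.07 with the trend removed. TUBE1, the epsilon-tubulin of centrioles, fell by 0.68 (adjusted p = 0.00189) and was −0.35 with the trend removed. The other 2 tested genes, TUBG2 and TUBD1, had values of 0.24 and −0.15 and did not pass. With the trend removed TUBG2 turned to −0.25 and passed as lower (adjusted p = 0.00449), and TUBD1 turned to 0.05 (adjusted p = 0.534). The list thus had 2 genes higher and 1 lower, where 26.6% of all genes tested were higher and 24.2% lower.

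All 25 genes of tubulin folding and autoregulation were tested, and 8 were higher and 1 was lower, with a median of 0.06. Over all genes tested, 26.6% were higher and 24.2% lower, as given above. PFDN6, a prefoldin subunit, rose from 6.004 ± 0.558 to 10.7 ± 1.76 FPKM (SD, n = 3, log2 fold change 0.74, limma adjusted p = 0.00507), and was 0.34 with the trend removed (adjusted p = 0.110). The cofactors TBCD, which handles beta-tubulin, and TBCC, which releases the finished heterodimer, rose by 0.55 and 0.47 and kept 0.45 and 0.30 with the trend removed. PFDN4, another prefoldin subunit, fell by 0.81 (adjusted p = 0.00217), with −0.49 once the trend was removed. TTC5, the autoregulation factor introduced above, rose from 1.79 ± 0.175 to 2.31 ± 0.0289 FPKM (SD, n = 3, log2 fold change 0.25, limma adjusted p = 0.0387), and the value was 0.54 with the trend removed. For TBCA, which binds beta-tubulin, the value was 0.01 (adjusted p = 0.891), and 0.25 with the trend removed, which passed (adjusted p = 0.0108).

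Of 26 genes of tubulin modification, 15 were tested, 3 were higher and 4 lower, with a median of 0.01. The shares over all genes tested were 26.6% higher and 24.2% lower. Without NC 3 the counts were 1 and 3, where 29.1% of all genes tested were higher and 24.7% lower. TTLL12, a member of the tubulin tyrosine ligase-like family, rose from 20.53 ± 2.03 to 42.8 ± 1.13 FPKM (SD, n = 3, log2 fold change 1.03, limma adjusted p = 0.000613), and the value was 0.52 with the trend removed. SIRT2, a tubulin deacetylase, and ATAT1, the alpha-tubulin acetyltransferase, rose by 0.32 and 0.23 (adjusted p = 0.0476 and 0.0490), but both calls were lost without NC 3 (adjusted p = 0.0708 and 0.0621) and with the trend removed neither passed, at −0.09 and 0.09 (adjusted p = 0.372 and 0.369). The glutamylase gene TTLL7, the glycylase gene TTLL3 and the glutamylase gene TTLL1 fell by 0.64, 0.46 and 0.44, and had −0.25, −0.57 and −0.59 with the trend removed. The call of TTLL1 was lost without NC 3 (adjusted p = 0.104). TTL, the tyrosine ligase, had −0.14 (adjusted p = 0.0923), but with the trend removed it turned to 0.17 and passed as higher (adjusted p = 0.0215). HDAC6, a deacetylase, had 0.01 (adjusted p = 0.937) and −0.19 with the trend removed (adjusted p = 0.0536). SVBP, the partner of the detyrosinating vasohibins, had 0.08 (adjusted p = 0.684) and 0.18 (adjusted p = 0.405).

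The gamma-tubulin ring complex, which nucleates microtubules, had all 12 listed genes tested. Of these, 4 were higher and 2 lower, so that 50% were called, against 50.7% of all genes tested. The median was 0.17 and turned to −0.06 with the trend removed. MZT2B and TUBGCP6, both parts of the complex, rose by 0.80 and 0.76 and had 0.03 and 0.31 with the trend removed. The small subunit MZT1 and the targeting factor NEDD1 fell by 0.37 and 0.34, and neither passed with the trend removed (adjusted p = 0.208 and 0.594).

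Of 37 genes of microtubule binding and dynamics, 30 were tested, 8 were higher and 11 lower, with a median of −0.14. Among all genes tested, 26.6% were higher and 24.2% lower. The counts were 5 and 6 with the trend removed, where 21.2% of all genes were higher and 18.4% lower. The microtubule-associated genes MAP1S, CAMSAP3 and MAP7D1 rose by 1.02, 0.89 and 0.73, and had 0.22, 0.12 and 0.01 with the trend removed. CKAP5, a microtubule polymerase, fell from 38.4 ± 4.66 to 24.4 ± 0.816 FPKM (SD, n = 3, log2 fold change −0.63, limma adjusted p = 0.00280), and was −0.46 with the trend removed. CAMSAP2, a minus-end binding protein, and KATNAL1, a severing enzyme subunit, fell by 0.48 and 0.41, and neither passed with the trend removed (−0.14 and −0.06, adjusted p = 0.0534 and 0.478). STMN1, which sequesters tubulin heterodimers, rose from 55.3 ± 1.13 to 71.8 ± 0.817 FPKM (SD, n = 3, log2 fold change 0.37, limma adjusted p = 0.00155), and was 0.68 with the trend removed. MAPRE1, which tracks growing plus ends, had 0.06 (adjusted p = 0.375), and 0.17 with the trend removed, which passed (adjusted p = 0.0149).

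**Figure D4:**
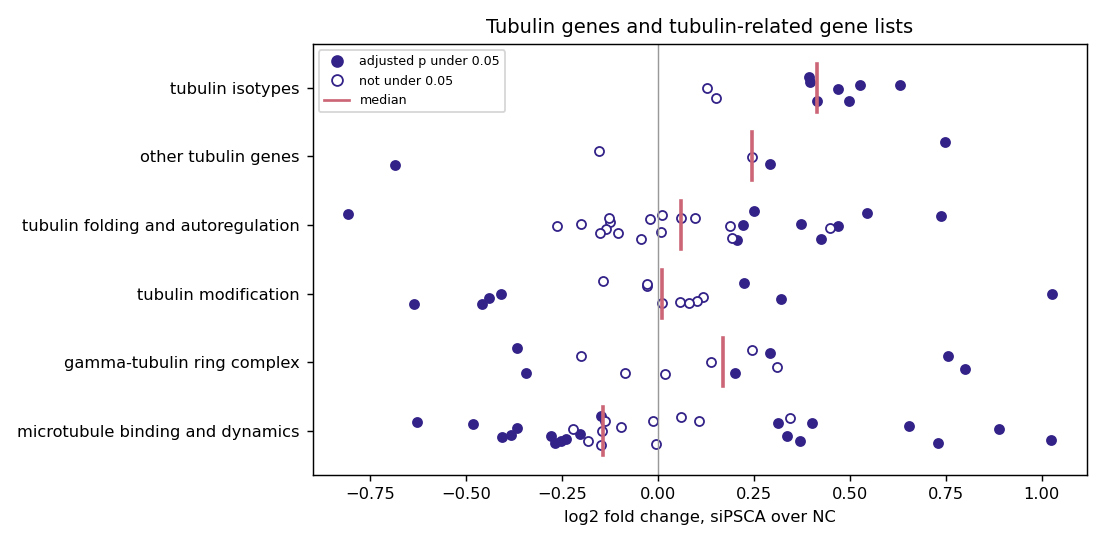
Log2 fold change, siPSCA over NC, of each tested gene of the isotype set and of 5 tubulin-related lists, filled where the adjusted p was under 0.05, with the median of each as a bar. The isotypes have a median of 0.42 with no gene below 0 before the GC and length trend is removed, whereas the other lists hold genes on both sides of 0 and medians of −0.14 to 0.24.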

How the data were processed

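The authors deposited 1 table of FPKM values (fragments per kilobase of exon, scaled to library size) for 58735 genes in 6 libraries, with gene positions and lengths that matched GENCODE release 29 on GRCh38. Libraries were made with the NEBNext Ultra RNA kit from TRIzol-extracted total RNA. The aligner, counter and strand setting are not given in the sources used here. Although 2 titles in the siPSCA group write HCT117 and HCT118, their remaining labels name HCT116. FPKM times gene length gave whole reads (tolerance 0.1) for 100% of values, and 1 read per kilobase corresponded to 0.0549 to 0.0595 FPKM.

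limma 3.58.1 in R 4.3.3 (lmFit, eBayes with trend) was run on log2(FPKM + 1), the group being its sole term. A mean of 1 FPKM or more was required, which 13796 genes met, and p-values were adjusted by the Benjamini-Hochberg method over all of them. For TUBB2B and PSCA, which lay below it, the model was run on every gene that had a read (34391 genes). Fold changes are siPSCA over NC. Counts and sequences were computed with Python 3.11.15, pandas 2.3.3, numpy 2.4.6, scipy 1.17.1 and Biopython 1.88, and figures with matplotlib 3.10.9. Some coding sequence ends are not reported here. Models were first tested on simulated data. GC content came from the longest GENCODE transcript, and TBCE, which has more than 1 entry, was taken from the one with the higher mean.

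The isotypes and lists were chosen with earlier results of these data known. All 10 isotypes are named, and of each list the 3 largest rises and falls past the threshold without overlap of the groups, with TTC5, TBCA, TTL, ATAT1, HDAC6, SVBP, STMN1, MAPRE1, TUBG1 and each other alpha- or beta-tubulin gene over the minimum whatever their values. TUBG2, TUBD1, TUBA3D and the cell type markers named above were named after their values were seen. Alternatives were a pseudocount of 0.1, no minimum FPKM, median-ratio scaling, TPM, limma-voom on recovered reads, removal of the GC and length trend, the replicate number as a block, and each library left out.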

Additional observations from a re-analysis of the deposited data

How the results depend on the processing

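With the GC and length trend removed, 4 isotypes passed the adjusted threshold in place of 7, and 11 genes of microtubule binding and dynamics in place of 19. Over the whole table, 5465 genes passed in place of 7001. Log2 fold changes then turned to −0.035 for TUBA1A, −0.34 for TUBB3 and −0.034 for TUBB6, and fell short of the threshold at 0.0502 for TUBA4A, 0.25 for TUBB2A and 0.11 for TUBB4B. With no minimum FPKM, TUBB6 kept 0.47 but lost its call (adjusted p = 0.0531). Leaving out 1 library at a time gave 6 to 8 isotypes, 4627 (without siPSCA 1) to 7425 genes of the whole table, 5 to 12 genes of folding and autoregulation, 4 to 5 of tubulin modification and 10 to 20 of microtubule binding. The folding list gave 5 without siPSCA 1 or siPSCA 2, the modification list 4 without NC 3, siPSCA 1 or siPSCA 2, and the microtubule list 10 without siPSCA 1 and 11 without siPSCA 2. The log2 fold change ranged from 0.085 to 0.20 for TUBA1A and from 0.33 to 0.56 for TUBB6. The ratio of the alpha sums was 1.26 in TPM, and that of the beta sums 1.33 in TPM and 1.395 in recovered reads. Of the fold changes of the 10 isotypes, 118 of 129 values under the alternatives kept their direction and side of the threshold, among them all those with a pseudocount of 0.1, median-ratio scaling, TPM and limma-voom, each of which called 7 isotypes.

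Same-numbered deviations from the group means correlated weakly, at 0.0955, 0.0132 and 0.134. NC 1 and NC 3 correlated best with the siPSCA library of their own number, and NC 2 with siPSCA 1. Deviations within a group are bound to each other by its mean, so these values do not decide whether replicate numbers pair the libraries. With the replicate number as a block, 7 isotypes and 6725 genes of the whole table passed, and the block changed no call of an isotype. Genes with few reads, such as TUBB2B with 12 to 34 and PSCA with 4 to 15, allow no firm statement at this depth. Whole reads were recovered, so counting error is known, but it does not cover reads split between near-identical copies.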

Other observations

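Reads were also listed on tubulin pseudogenes. Of 38 entries named as alpha- or beta-tubulin pseudogenes, 17 had a read and 3 reached a mean of 1 FPKM. Together they held 350 to 462 reads a library, or 0.754% to 1.24% of the reads on the 10 isotypes. TUBB8P1 fell from 12.6 ± 0.427 to 9.07 ± 1.31 FPKM (SD, n = 3, log2 fold change −0.45, limma adjusted p = 0.0132), whereas TUBBP5 had 0.36 (adjusted p = 0.0881) and TUBBP1, a copy of TUBB, had 0.11. These genes were named after their values were seen.

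The promoters of the isotypes, as 300-base windows around the start in RefSeq on GRCh38.p14 (250 bases before and 50 after), were searched on both strands for 3 short motifs. The motif CCAAT was in the windows of 7 of the 10 isotypes and in 34.6% of 35116 promoters, GGGCGG in 8 of 10 and in 44.95%, and TATAAA in 1 of 10 (TUBB2A) and in 11.5%. The TUBA1B window held 3 GGGCGG and no CCAAT, and that of its near-identical coding partner TUBA1A held 2 CCAAT and no GGGCGG. GC content was 77.0% and 55.7% in these windows. The RefSeq starts lay up to 244 bases from those of the GENCODE transcripts, and matches are descriptions of letters only.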
